A study of Arabidopsis thaliana with 29 samples.

Results

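The JASMONATE ZIM-DOMAIN (JAZ) genes of Arabidopsis thaliana encode the repressors of the jasmonate response, and their transcripts were followed in leaves of plants over-expressing GLUTAMINE DUMPER (GDU) genes, which encode plant membrane proteins whose over-expression alters amino acid export. Entries were taken by symbol, synonym or locus identifier for 10 genes, namely JAZ1 (AT1G19180), JAZ2 (AT1G74950), JAZ3 (AT3G17860), JAZ5 (AT1G17380), JAZ6 (AT1G72450), JAZ7 (AT2G34600), JAZ8 (AT1G30135), JAZ9 (AT1G70700), JAZ10 (AT5G13220) and JAZ12 (AT5G20900), and all 10 were found among the 32650 entries of each table. JAZ4, JAZ11 and JAZ13, which lie outside that selection, are described beside them.

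Jasmonate is a lipid-derived hormone made after wounding, insect feeding and infection by some pathogens. Without it, JAZ proteins hold MYC2 and related transcription factors inactive, through the adaptor NINJA and the co-repressor TOPLESS or, for some members, by recruiting TOPLESS directly. The conjugate jasmonoyl-isoleucine joins JAZ proteins to the F-box protein COI1, which marks them for degradation. Many JAZ genes are themselves targets of the MYC factors, so that JAZ transcripts are widely used as a readout of the response and the new repressor protein closes a feedback loop.

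The series holds 29 leaf libraries of the Columbia ecotype, each from the leaves of 4 to 6 plants grown for 23 days in soil under 16 h of light and 8 h of dark at 22 °C, and 27 of them in 10 groups enter 7 comparisons. Dex-GDU1 is a homozygous line with GDU1 under the dexamethasone-inducible 6Op-LHGRn system, and 4c-S7 is its parent. Both received a spray of 100 µM dexamethasone with 300 ppm Silwet 5 h after dawn, stood under a humidity dome for 7 h, and were sampled 7 h or 25 h after the spray, with 3 Dex-GDU1 and 4 4c-S7 libraries per time. The unsprayed lines were gdu1-1D, a constitutive GDU1 over-expressor with 3 libraries, and homozygous plants that carry GDU2, GDU4, GDU5 or GDU6 behind the CaMV 35S promoter, with 2 libraries each and each named after its gene, such as 35S-GDU2. These 5 unsprayed lines were all set against the same 2 libraries of Col wild type, so that their comparisons are not independent of each other. The labels name 1 line per transgene, that promoter is active in most tissues, and no unsprayed Dex-GDU1 or 4c-S7 group enters, so lasting differences between those lines are part of their comparison.

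The over-expressed gene rose in 6 of the 7 comparisons, from 56.7-fold for GDU1 in gdu1-1D to 3302-fold for GDU6 in 35S-GDU6. GDU4 stood at 8.72 FPKM in Col and 10.9 FPKM in the libraries labelled 35S-GDU4 (q 0.949) per the authors' deposited table, so the label was not borne out by a call. The GDU4 entry spans a run of reads at chr2:10559384-10708146 (TAIR10) that 47 entries of the table share, so its level is uncertain too, and that group is written below as the libraries labelled 35S-GDU4. FPKM is the number of sequenced fragments divided by transcript length and by how much was sequenced. In the authors' deposited tables the 5 photosynthesis genes checked as leaf markers summed to between 7916 and 39570 FPKM in the 14 group values, although RBCS1A is listed at 0 in 11 of them and RCA in 3. Of these leaf markers 4 of 4 tested were called lower in 35S-GDU5, with log2 fold changes from -1.31 for CA1 to -0.52 for LHCB1.1, 2 of 3 in gdu1-1D, 2 of 4 in 35S-GDU2 and in 35S-GDU6, and 0 of 4 in the libraries labelled 35S-GDU4. LHCB1.1 was called higher at 7 h (0.58) and GLDP1 at 25 h (0.42). The 4 flower markers never passed 1.34 FPKM per the authors' deposited tables. Among them AP1, listed at 0 in Col, and PI were called higher in 35S-GDU5, and AG was called higher at 25 h and lower in gdu1-1D, 35S-GDU5, 35S-GDU6 and the libraries labelled 35S-GDU4, with log2 fold changes between -3.07 and -1.57. Of the 4 root markers, COBL9, EXPA7 and PRP3 stayed at or below 0.0508 FPKM, while PYK10 was called higher in the 5 unsprayed lines and reached 65.5 FPKM in 35S-GDU5, per the authors' deposited tables. The 4 guard cell markers FAMA, MYB60, KAT1 and GC1 were called lower in 0 of 4 cases at 7 h, 3 at 25 h, 3 in gdu1-1D, 4 in 35S-GDU2, only 1 in the libraries labelled 35S-GDU4, and 4 in each of 35S-GDU5 and 35S-GDU6. Fewer cells of a type and less RNA per cell cannot be told apart in these leaf pools, and the part of these shifts in the JAZ values was not tested.

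Among the 10 selected JAZ genes at least 4 were called higher in each comparison, and no JAZ gene was called lower in any of the 7 comparisons. The 4 calls at 7 h are lost when p is taken from the authors' test statistic. A gene was called where the authors' q-value was below 0.05. Calls in the lower direction were common over all tested genes, at 7.19% for Dex-GDU1 at 7 h, 21.6% at 25 h, 21.4% for gdu1-1D, 10.2% for 35S-GDU2, 5.71% for the libraries labelled 35S-GDU4, 26.5% for 35S-GDU5 and 23.9% for 35S-GDU6. Of the 70 pairs of gene and comparison, 48 were called higher, 20 were tested and not called, and 2 were not tested. The shares of all tested genes called higher were 8.76% at 7 h, 24.5% at 25 h, 23.1% for gdu1-1D, 14.5% for 35S-GDU2, then 9.65% for the libraries labelled 35S-GDU4, 28.5% for 35S-GDU5 and 24.9% for 35S-GDU6. JAZ1, JAZ2, JAZ6 and JAZ9 were higher in all 7 comparisons, JAZ5 and JAZ12 in the 6 other than Dex-GDU1 at 7 h, and JAZ10 in 5. JAZ3 was called in 35S-GDU6 alone, and JAZ7 and JAZ8 in Dex-GDU1 at 25 h alone. The tables hold 1 value per gene and group, so the spread between libraries is not visible. Errors are standard errors recomputed from the authors' p-values. Where p is the smallest possible, 5e-05, they are upper bounds only if that p-value holds. Errors from the authors' test statistic can be larger there, as for JAZ1 at 7 h (0.20 against 0.14). They can also be smaller, as for JAZ1 at 25 h (0.19 against 0.35).

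**Figure D1:**
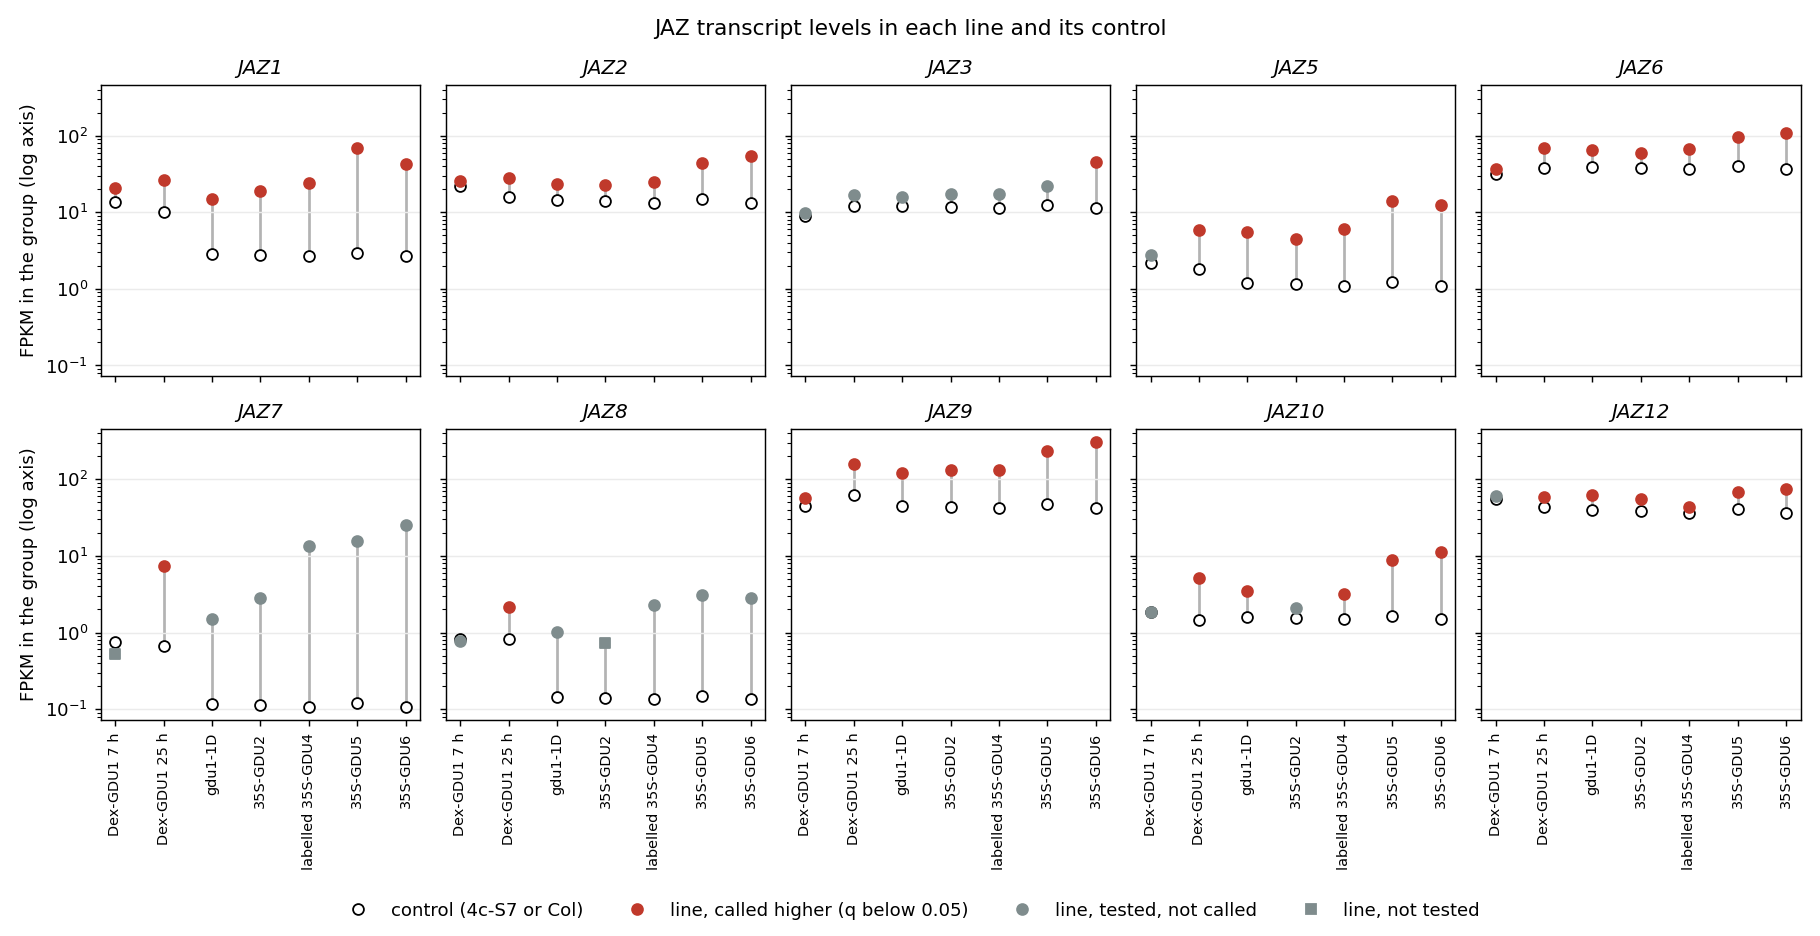
Transcript level of each JAZ gene as FPKM on a log axis, with 1 value per group: open circles are the control of the comparison, filled symbols the line, red where called higher. Red symbols lie above the open circle in all 48 called pairs, and within each comparison with Col the grey JAZ7 symbol lies furthest from its open circle.

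The promoters of 3 members that mark the extremes of these values are shown first. For each, the 300 bases before the annotated gene start on TAIR10.1 are given 5′ to 3′ on the strand of the gene, in lower case, with capitals for the G-box CACGTG, the element to which MYC2 binds in vitro. JAZ7 had the largest fold differences and JAZ9 the highest level, and JAZ8 is, like JAZ7, a member with little transcript in the controls.
JAZ7, chr2:14572730-14573029, plus strand: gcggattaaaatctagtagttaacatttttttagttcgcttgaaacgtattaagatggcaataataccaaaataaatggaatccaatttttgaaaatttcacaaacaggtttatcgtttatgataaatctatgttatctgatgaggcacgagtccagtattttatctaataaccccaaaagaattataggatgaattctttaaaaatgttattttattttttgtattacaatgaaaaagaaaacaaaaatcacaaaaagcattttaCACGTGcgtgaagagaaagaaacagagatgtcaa
JAZ8, chr1:10596052-10596351, plus strand: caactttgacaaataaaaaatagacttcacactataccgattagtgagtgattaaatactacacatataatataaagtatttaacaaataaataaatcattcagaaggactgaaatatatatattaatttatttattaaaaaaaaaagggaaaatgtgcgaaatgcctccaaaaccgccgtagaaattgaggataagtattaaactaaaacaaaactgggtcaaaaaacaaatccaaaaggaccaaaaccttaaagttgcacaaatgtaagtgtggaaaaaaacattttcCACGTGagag
JAZ9, chr1:26654229-26654528, plus strand: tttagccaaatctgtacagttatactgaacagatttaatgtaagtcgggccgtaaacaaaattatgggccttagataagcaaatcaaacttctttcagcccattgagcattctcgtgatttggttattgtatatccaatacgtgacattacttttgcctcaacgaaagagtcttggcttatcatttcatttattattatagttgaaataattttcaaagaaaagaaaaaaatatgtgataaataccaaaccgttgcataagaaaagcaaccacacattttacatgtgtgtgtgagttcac
The G-box starts 34 bases before the annotated start of JAZ7 and 10 bases before that of JAZ8, and it is absent from this window of JAZ9. JAZ2 has 1 copy, at position -66, and JAZ3 has 2, at -140 and -82. The annotated starts of JAZ7, JAZ8 and JAZ9 are 14573030, 10596352 and 26654529. Their expression entries start further downstream, at 14573080, 10596492 and 26654768, so positions relative to those entries differ. Among all 27437 windows of 300 bases in the annotation, 7.09% hold CACGTG, which reads alike on both strands, against 4 of the 9 JAZ windows examined. The variant AACGTG, on either strand and overlapping with no G-box here, lies in the windows of JAZ3, JAZ5, JAZ6 and JAZ12, against 8.71% of all windows. At least 1 of both motifs was found in 7 of the 9 JAZ windows and in 15% of all windows, and none in those of JAZ9 and JAZ10. These matches describe the letters only, and since JAZ9 rose in all 7 comparisons, members with and without a match are found among those called.

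**Figure D2:**
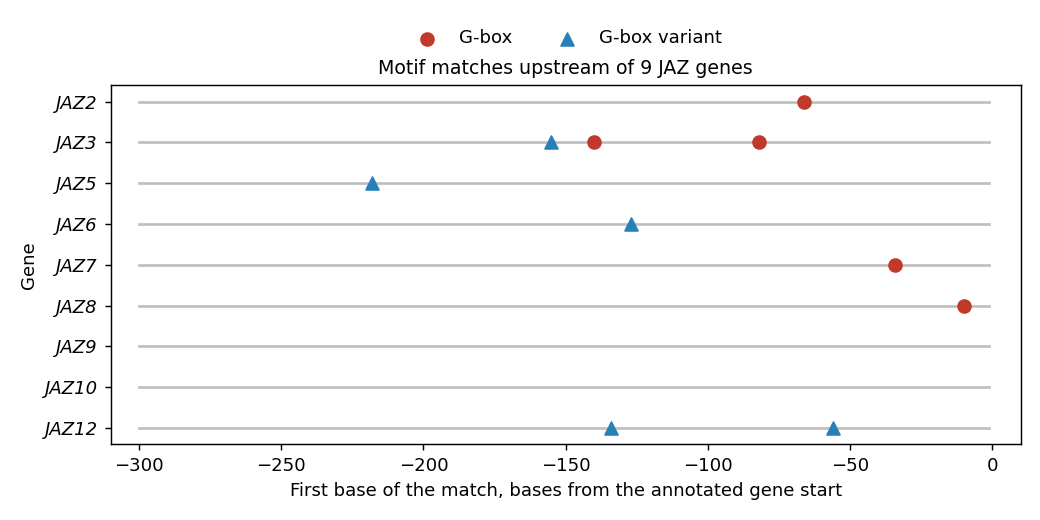
Position of each motif match in the 300 bases before the annotated start of 9 JAZ genes, in bases from that start; circles are G-boxes and triangles the variant. The JAZ9 and JAZ10 lines carry no symbol.

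In unsprayed Col leaves the JAZ transcript pool was uneven. Since FPKM is scaled to transcript length, levels can be set against each other: JAZ9 stood highest at 45.3 FPKM, then JAZ12 at 39.4 and JAZ6 at 39.3, per the authors' deposited table that compares gdu1-1D with Col. These 3 made up 79.3% of the summed level of the 10 genes. JAZ2, at 14.3 FPKM, and JAZ3, at 12.2 FPKM, came next per the authors' deposited table. JAZ1 at 2.85, JAZ10 at 1.58 and JAZ5 at 1.18 FPKM were low there, and JAZ8 at 0.144 and JAZ7 at 0.115 FPKM were close to undetected per the authors' deposited table. No spread over libraries is given in the tables, so neighbours in this order, such as JAZ12 and JAZ6, cannot be called different. The entry of JAZ12 shares a run of reads with another entry, and that of JAZ3 lies in a run shared by 69 entries. Both levels are therefore uncertain, as are the sums and shares that include them.

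In the sprayed parent some of the members low in Col had higher values. In 4c-S7 JAZ1 stood at 13.7 FPKM at 7 h and 9.95 FPKM at 25 h, JAZ7 at 0.761 and 0.663 FPKM and JAZ8 at 0.820 and 0.822 FPKM, per the authors' deposited tables. JAZ9, JAZ12 and JAZ6 were again the 3 highest at both times, with 72.5% of the pool at 7 h and 77.1% at 25 h. Col and 4c-S7 were normalised in separate tables and differ in spray, dome and genotype, so no test was made between them.

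The summed level of the 10 genes was higher in every line than in its control. The ratio of line to control was 1.19 in Dex-GDU1 at 7 h and 2.04 at 25 h, 2.01 in gdu1-1D, 2.11 in 35S-GDU2, 2.27 in the libraries labelled 35S-GDU4, 3.54 in 35S-GDU5 and 4.71 in 35S-GDU6. JAZ9 made the largest single share in each unsprayed line, between 38.8% in gdu1-1D and 44.9% in 35S-GDU6, against 29.0% in Col. JAZ12 moved the other way as a share, from 25.2% in Col to 19.6% in gdu1-1D and 11.0% in 35S-GDU6, although its own level was called higher in both lines. JAZ1 went from 1.82% of the pool in Col to 12.1% in 35S-GDU5, where it was the third highest member. These sums and shares were not tested.

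**Figure D3:**
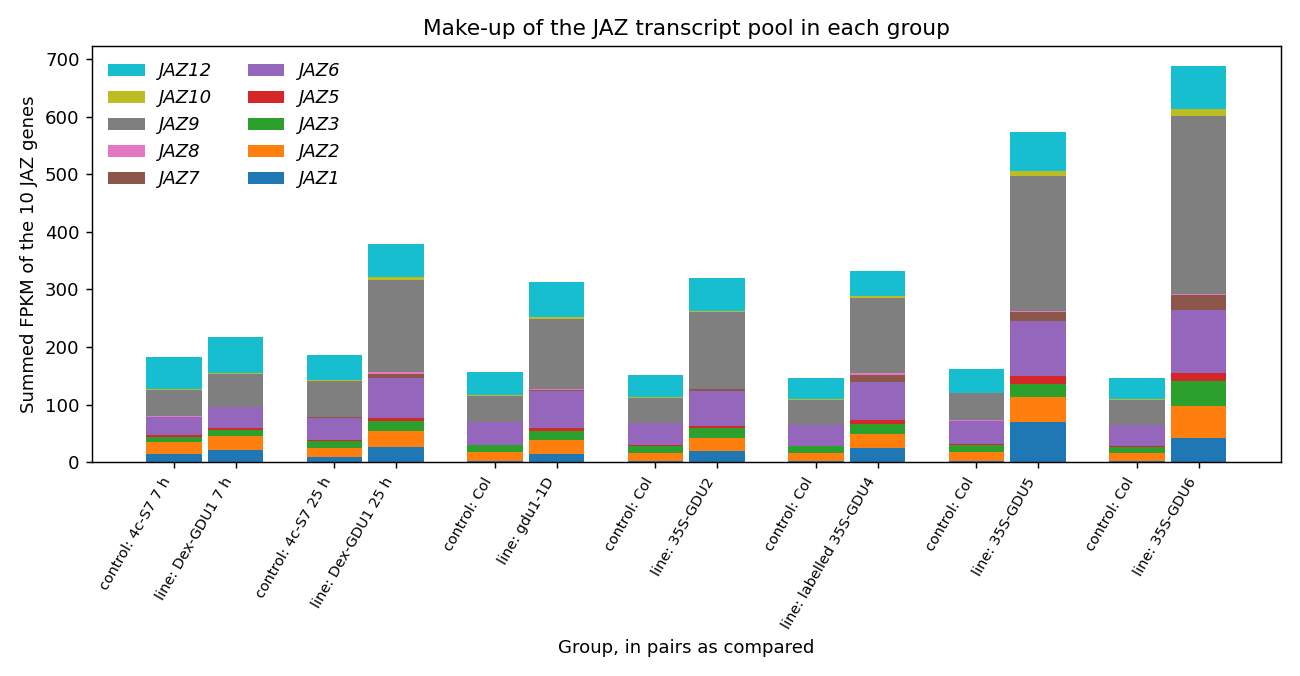
Summed FPKM of the 10 JAZ genes per group, in pairs of control and line, with 1 colour per gene. The bars of 35S-GDU5 (573.7 FPKM) and 35S-GDU6 (688.3 FPKM) are the tallest, and grey, JAZ9, is the widest band in both.

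Dex-GDU1 leaves showed a small rise of 4 JAZ genes 7 h after the spray. JAZ1, JAZ2, JAZ6 and JAZ9 were called higher, which is 4 of the 9 members tested, where 8.76% of all tested genes were called higher. JAZ1 went from 13.7 to 20.6 FPKM, a log2 fold change of 0.59 ± 0.14 (SE) with a q of 0.000725 per the authors' deposited table. JAZ9, from 45.5 to 57.0 FPKM, had a log2 fold change of 0.33 ± 0.08 and the same q per the authors' deposited table. JAZ2 and JAZ6 rose by 0.23 ± 0.07 and 0.21 ± 0.07 on the log2 scale, with a q of 0.0111 each per the authors' deposited table. No member reached a 2-fold change at this time, where 0.829% of all tested genes were called with at least that rise.

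The other members did not pass at 7 h. JAZ5 had a log2 fold change of 0.35 (q 0.161) and JAZ12 one of 0.15 (q 0.128) per the authors' deposited table. JAZ10, 1.84 FPKM in 4c-S7 and 1.85 FPKM in Dex-GDU1, and JAZ8, 0.820 and 0.773 FPKM, were close to level per the authors' deposited table. JAZ7 was not tested, at 0.761 FPKM in 4c-S7 and 0.531 FPKM in Dex-GDU1 per the authors' deposited table. The median log2 fold change of the 9 tested members was 0.21, against -0.01 for all tested genes. The 4 calls rest on the authors' p-values: none of them is made when p is taken from the authors' test statistic and the normal distribution, where 1.07% of all tested genes are called higher.

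At 25 h 9 of the 10 members were called higher, where 24.5% of all tested genes were called higher. The exception was JAZ3, at 12.1 and 16.6 FPKM with a q of 0.676 per the authors' deposited table. JAZ7, whose protein lacks the usual degradation signal and binds TOPLESS directly, went from 0.663 to 7.39 FPKM, an 11.2-fold rise and a log2 fold change of 3.48 ± 0.86 with a q of 0.00019 per the authors' deposited table. It ranked 40th from the top among the 17645 tested genes with a finite fold change. JAZ10, known for splice forms that resist degradation, went from 1.45 to 5.17 FPKM, and JAZ5 from 1.82 to 5.92 FPKM, per the authors' deposited table. JAZ8, another member without the usual degradation signal, rose from 0.822 to 2.16 FPKM per the authors' deposited table, a call that is lost with p from the test statistic. These low-level members had log2 fold changes of 1.84 ± 0.45, 1.70 ± 0.42 and 1.39 ± 0.39.

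Among the abundant members at 25 h, JAZ9 rose the most, from 62.7 to 160.0 FPKM per the authors' deposited table, a log2 fold change of 1.35 ± 0.33. JAZ6 and JAZ2 rose by 0.87 ± 0.22 and 0.85 ± 0.21, and JAZ12 by 0.43 ± 0.11. JAZ1 stood at 9.95 FPKM in 4c-S7 and 26.7 FPKM in Dex-GDU1 per the authors' deposited table, or 1.42 ± 0.35 on the log2 scale. The median over the 10 members was 1.37, against 0.00 for all tested genes, and 6 of the 10 passed both the q and a 2-fold change, where 4.55% of all tested genes did so.

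The change was more positive at 25 h than at 7 h for 5 of the 9 members tested at both times. The difference of the log2 fold changes was tested against its standard error with the normal distribution and Benjamini-Hochberg adjustment over 17114 genes, of which 10.4% were more positive and 6.88% more negative. JAZ10 had the largest tested difference among those called, 1.83 ± 0.49 (adjusted p 0.0038), followed by JAZ5 with 1.35 ± 0.45 (adjusted p 0.0228) and JAZ9 with 1.03 ± 0.34 (adjusted p 0.0225). JAZ6 differed by 0.66 ± 0.23 (adjusted p 0.0256) and JAZ2 by 0.62 ± 0.22 (adjusted p 0.035). For JAZ1 the difference was 0.84 ± 0.38 (adjusted p 0.112), for JAZ8 1.48 ± 0.63 (adjusted p 0.0857) and for JAZ12 0.28 ± 0.13 (adjusted p 0.112). JAZ3 had a difference of 0.32, with a 95% interval from -2.01 to 2.65, and JAZ7 could not be tested. With standard errors from the authors' test statistic in place of the p-value, JAZ9 alone was called (adjusted p 0.00026), where 1.79% of genes were more positive.

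**Figure D4:**
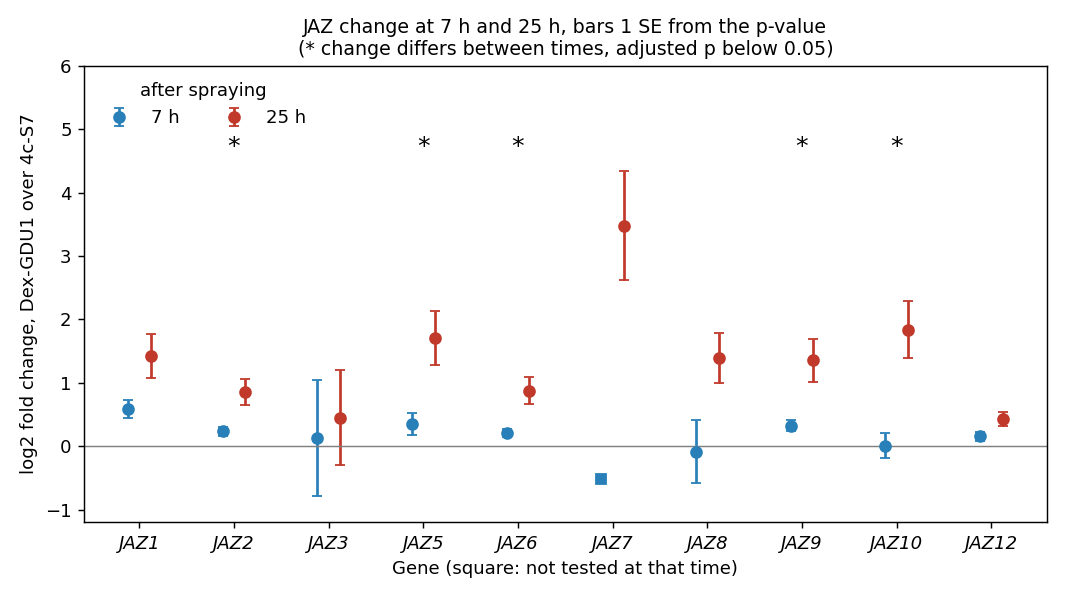
Log2 fold change of each JAZ gene in Dex-GDU1 over 4c-S7 at 7 h (blue) and 25 h (red), with bars of 1 standard error from the authors' p-value; the square is a gene that was not tested. The red point lies above the blue one for each of the 10 genes, and asterisks mark the 5 whose difference was called.

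In gdu1-1D, which over-expresses GDU1 constitutively, 7 of the 10 members were called higher, where 23.1% of all tested genes were. JAZ1 rose from 2.85 to 15.1 FPKM, a log2 fold change of 2.41 ± 0.59 (q 0.000209 per the authors' deposited table). JAZ5 went from 1.18 to 5.52 FPKM, JAZ10 from 1.58 to 3.45 FPKM and JAZ9 from 45.3 to 122 FPKM per the authors' deposited table. The call of JAZ10 is lost with p from the test statistic. JAZ2, JAZ6 and JAZ12 rose by less than 2-fold, with log2 fold changes of 0.72, 0.71 and 0.64. JAZ3, JAZ7 and JAZ8 were not called, with log2 fold changes of 0.39, 3.70 and 2.80. The median of the members was 1.28, against 0.00 for all tested genes.

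The change of each JAZ gene in Dex-GDU1 at 25 h was also set against its change in gdu1-1D, whose libraries are separate. In that test of the difference, run as above over 17329 genes, 6.6% of all genes were more positive in Dex-GDU1 and 5.05% more negative, and 0 of the 10 members passed, nor did any have an unadjusted p below 0.05. With standard errors from the test statistic 0 passed and 1 had an unadjusted p below 0.05. The intervals are wide for the members that moved most. Where p is the smallest possible, the standard error is a fixed share of the change, so the width grows with it. Standard errors of the difference were 0.69 for JAZ1, against 0.35 from the test statistic, and 0.53 for JAZ10, against 0.64. The absence of a call therefore does not show that the changes were alike. For JAZ1 the difference was -0.99, with a 95% interval from -2.34 to 0.37, and for JAZ10 it was 0.71, from -0.33 to 1.75. For JAZ6 the interval ran from -0.38 to 0.71 around 0.16, and for JAZ9 from -1.03 to 0.87 around -0.08. Sampling, spray and controls differ between these comparisons.

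The 4 lines under the 35S promoter gave the same direction, with the larger member medians in 35S-GDU5 and 35S-GDU6. In 35S-GDU2, 6 of 9 tested members were called higher, where 14.5% of all tested genes were. In the libraries labelled 35S-GDU4 it was 7 of 10, where 9.65% of all tested genes were, the smallest share among the unsprayed lines. In 35S-GDU5 it was 7 of 10 against 28.5% of all tested genes, and in 35S-GDU6 8 of 10 against 24.9%. The member medians were 0.73, 1.37, 2.36 and 2.896 on the log2 scale in that order, against 0.01, 0.00, 0.01 and 0.00 for all tested genes. The median of 35S-GDU2 covers the 9 tested members and leaves out JAZ8, untested there with a log2 fold change of 2.37. Those of the other lines cover all 10, so the medians are not over the same genes. Differences between these lines were not tested, since they share their 2 control libraries.

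JAZ1 (chr1:6622094-6623620 on TAIR10) and JAZ5 (chr1:5955488-5957218) had the largest called changes against Col. JAZ1 reached 19.1 FPKM in 35S-GDU2, 24.4 in the libraries labelled 35S-GDU4, 69.6 in 35S-GDU5 and 42.1 in 35S-GDU6, against 2.66 to 2.95 FPKM in Col, per the authors' deposited tables. That is a 6.93-fold, 9.16-fold, 23.6-fold and 15.8-fold rise in turn. JAZ5 stood in these lines at 4.45, 6.13, 13.96 and 12.3 FPKM against 1.11 to 1.23 FPKM in Col, per the authors' deposited tables.

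The abundant members JAZ9 (chr1:26654768-26657064), JAZ6 (chr1:27274065-27276317), JAZ2 (chr1:28148575-28150444) and JAZ12 (chr5:7090703-7094446) rose by less. JAZ9 reached 134, 131, 233 and 309 FPKM in 35S-GDU2, the libraries labelled 35S-GDU4, 35S-GDU5 and 35S-GDU6, against 42.3 to 46.9 FPKM in Col, per the authors' deposited tables. Its log2 fold changes were 1.61 ± 0.40, 1.63 ± 0.40, 2.31 ± 0.57 and 2.87 ± 0.71. JAZ6 and JAZ2 moved in parallel, with log2 fold changes of 0.66 and 0.73 in 35S-GDU2, then 0.85 and 0.89 in the libraries labelled 35S-GDU4, 1.23 and 1.57 in 35S-GDU5, and 1.58 and 2.04 in 35S-GDU6. JAZ12 changed least among the called members, by 0.56, 0.24, 0.75 and 1.04 in that order. Its call in the libraries labelled 35S-GDU4 was the weakest, with a q of 0.0457 per the authors' deposited table, and is lost at a threshold of 0.01 and with p from the test statistic. Its reads share a stretch with another entry, and 2 annotated genes overlap it on the other strand. The strand setting is not given in the sources used here, so reads of JAZ12 and of these neighbours cannot be told apart.

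JAZ10 (chr5:4218888-4220921) was called in 3 of these 4 lines. It was not called in 35S-GDU2, at 1.53 FPKM in Col and 2.09 FPKM in that line (q 0.25) per the authors' deposited table. It rose to 3.19 FPKM in the libraries labelled 35S-GDU4, 8.72 FPKM in 35S-GDU5 and 11.2 FPKM in 35S-GDU6, per the authors' deposited tables. The log2 fold changes were 0.45 ± 0.27, 1.11 ± 0.27, 2.41 ± 0.59 and 2.92 ± 0.72. With p from the test statistic the call in the libraries labelled 35S-GDU4 is lost. A long non-coding RNA gene lies on the other strand of JAZ10 and its reads cannot be told apart from those of JAZ10.

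JAZ3 was called in 1 of the 7 comparisons. It stood between 11.4 and 12.6 FPKM in Col and between 16.0 and 21.7 FPKM in gdu1-1D, 35S-GDU2, the libraries labelled 35S-GDU4 and 35S-GDU5, and none of these 4 was called per the authors' deposited tables. In 35S-GDU6 it reached 44.7 FPKM, a log2 fold change of 1.97 ± 0.67 with a q of 0.0085 per the authors' deposited table. The entry of JAZ3 spans a run of reads at chr3:6055482-6295878 (TAIR10), which is shared by 69 entries of the table. Its test statistic did not pass 1.79 in any comparison per the authors' deposited tables, and with p from that statistic the call in 35S-GDU6 is lost. The standard errors of JAZ3 lay between 0.63 and 0.92 on the log2 scale, and in gdu1-1D and 35S-GDU2 its standard error, 0.84 and 0.85, exceeded the whole change of JAZ2 or JAZ6.

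JAZ7 (chr2:14573080-14573856) had the largest fold differences of the 10 genes and no call against Col. From 0.108 to 0.119 FPKM in Col it reached 1.495 FPKM in gdu1-1D, 2.79 in 35S-GDU2, 13.3 in the libraries labelled 35S-GDU4, 15.5 in 35S-GDU5 and 25.6 in 35S-GDU6, per the authors' deposited tables. The ratios were 13.0, 25.0, 123.7, 130.1 and 237.9. Among all tested genes with a finite change its rank from the top was 174 in gdu1-1D, 47 in 35S-GDU2, then 3 in the libraries labelled 35S-GDU4, 49 in 35S-GDU5 and 4 in 35S-GDU6. The p-values lay between 0.213 and 0.249 although the test statistics lay between 2.91 and 5.38 per the authors' deposited tables. With p taken from the test statistic, JAZ7 is called in all 5 lines.

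Among tested genes below 0.2 FPKM in Col and at 1 FPKM or more in the line, as JAZ7 is, 64 of 116 were called in gdu1-1D, 26 of 67 in 35S-GDU2, 1 of 20 in the libraries labelled 35S-GDU4, 132 of 306 in 35S-GDU5 and 36 of 85 in 35S-GDU6, by the q of the authors' deposited tables. Of these genes, those with a test statistic of at least 2.9, as JAZ7 has, were called more often. The counts were 32 of 39, 13 of 17, 0 of 3, 79 of 102 and 14 of 20 in the same order. Among genes with such a statistic, an uncalled gene such as JAZ7 was thus the less common case, except in the libraries labelled 35S-GDU4. Without the limit on the statistic, uncalled genes were the more common case in each unsprayed line but gdu1-1D. All these limits were set with the values of JAZ7 known. JAZ8 (chr1:10596492-10597239) stood at 0.135 to 0.149 FPKM in Col and at 1.00 FPKM in gdu1-1D, 0.719 in 35S-GDU2, 2.31 in the libraries labelled 35S-GDU4, 3.08 in 35S-GDU5 and 2.85 in 35S-GDU6, per the authors' deposited tables. It was not tested in 35S-GDU2 and not called in the other 4, and its statistic did not pass 1.73 against Col, per the authors' deposited tables.

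**Figure D5:**
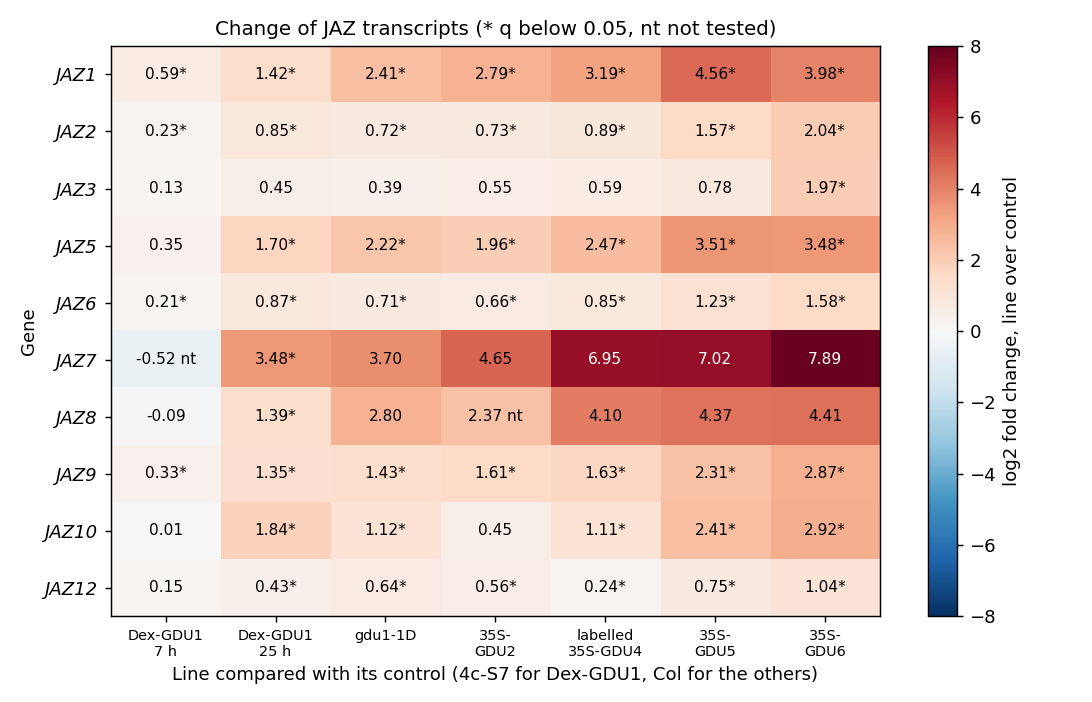
Log2 fold change of each JAZ gene in each line over its control, written in the cells and shown as colour; asterisks mark genes called by the authors' q and nt those not tested. Only the JAZ7 and JAZ8 cells at 7 h are below 0, at -0.52 and -0.09.

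Outside the selection, JAZ4 was not tested in any comparison and stayed at or below 0.368 FPKM per the authors' deposited tables. JAZ11, at 6.98 to 8.85 FPKM in the controls, was called only in Dex-GDU1 at 25 h. Its log2 fold change there was 0.29, with a q of 0.00686 per the authors' deposited table. In the other comparisons it was 0.02 at 7 h, 0.20 in gdu1-1D and -0.19 in 35S-GDU2. It was 0.04 in the libraries labelled 35S-GDU4, -0.17 in 35S-GDU5 and -0.13 in 35S-GDU6. JAZ13, like JAZ7 and JAZ8 a form without the usual degradation signal, was called in Dex-GDU1 at 25 h, from 0.201 to 0.970 FPKM, and in 35S-GDU5, from 0.338 to 2.40 FPKM, per the authors' deposited tables. It was not tested at 7 h or in gdu1-1D. It was tested and not called in the other lines, at 0.305 and 2.67 FPKM in Col and 35S-GDU6 (q 0.0597), at 0.306 and 1.32 FPKM in Col and the libraries labelled 35S-GDU4 (q 0.256), and at 0.316 and 1.14 FPKM in Col and 35S-GDU2 (q 0.101), per the authors' deposited tables. A protein-coding gene overlaps JAZ13 on the other strand.

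Among the transcripts of JAZ partner proteins, MYC2 and JAM1 were called higher in all 7 comparisons by the authors' q-values. Calls with p from the test statistic, which removed the JAZ calls at 7 h, were not examined for the partners. MYC2, the transcription factor best known as a target of JAZ repression, had log2 fold changes of 0.82 in Dex-GDU1 at 7 h, 1.48 at 25 h, 1.60 in gdu1-1D, 2.04 in 35S-GDU2, then 1.84 in the libraries labelled 35S-GDU4, 2.53 in 35S-GDU5 and 2.97 in 35S-GDU6. The receptor gene COI1 was called in none, with log2 fold changes between -0.30 and 0.16, and neither were NINJA, TPL, which encodes TOPLESS, and JAM2. JAM1, which encodes a repressor that competes with MYC2 for its sites, rose by between 0.39 and 1.02. MYC3 was called higher in 5 comparisons, JAM3 in 2 and MED25 in 1, and MYC4 was called lower in the libraries labelled 35S-GDU4, 35S-GDU5 and 35S-GDU6 (log2 fold changes of -0.88, -1.10 and -0.88). Of the 10 partners tested of 11, 2, 3, 4, 3, 2, 5 and 3 were called higher. The counts called lower were 0, 0, 0, 0, 1, 1 and 1. The order is 7 h, 25 h, gdu1-1D, 35S-GDU2, the libraries labelled 35S-GDU4, then 35S-GDU5 and 35S-GDU6. In that order 8.76%, 24.5%, 23.1%, 14.5%, 9.65%, 28.5% and 24.9% of all tested genes were called higher. The median log2 fold change of the tested partners lay between -0.05, in the libraries labelled 35S-GDU4, and 0.32, in 35S-GDU5.

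Some jasmonate synthesis genes were called higher in each comparison. Of 13 tested of 14, 8 were called higher at 7 h, 13 at 25 h, 11 in gdu1-1D, 11 in 35S-GDU2, then 9 in the libraries labelled 35S-GDU4, and 12 in each of 35S-GDU5 and 35S-GDU6, with 0 lower in each. LOX4, a lipoxygenase at the start of the pathway, and AOC3, an allene oxide cyclase, were called in all 7, with log2 fold changes of 4.64 and 5.10 in 35S-GDU5. Turnover genes, most of which oxidise or cleave the hormone or its conjugates, were called higher in 2 of 8 tested at 7 h. At 25 h it was 7 of 8, and in the unsprayed lines between 4 of 5 and 7 of 7. JOX2, a jasmonate oxidase, was higher in all 7, and CYP94B3, which hydroxylates jasmonoyl-isoleucine, fell at 7 h (log2 fold change -1.17) and rose at 25 h (2.91). Output genes were called higher in 3 of 7 at 7 h, 6 of 8 at 25 h, 8 of 8 in gdu1-1D and 35S-GDU5, 7 of 8 in 35S-GDU2 and 35S-GDU6, and 4 of 7 in the libraries labelled 35S-GDU4, with 1 lower in all, the ethylene and jasmonate factor gene ORA59 at 25 h. Among them the wound-induced VSP2 went from 2.87 to 114 FPKM in 35S-GDU6 and from 2.88 to 7.82 FPKM in the libraries labelled 35S-GDU4, per the authors' deposited tables. The shares of all tested genes called higher, given above, apply to these lists too. Calls with p from the test statistic, which removed the JAZ calls at 7 h, were not examined for these lists.

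Genes whose changes lay nearest to those of each member were found by the mean absolute difference of the log2 fold change over the 7 comparisons, among 16460 genes tested in all of them. Since 5 of the comparisons share the Col libraries, this is a description with no test. JAZ9 lay nearest to OPR3, the 12-oxophytodienoate reductase of jasmonate synthesis, with a mean difference of 0.0906, and next to ILL6 (0.227), an amidohydrolase that cleaves jasmonate conjugates. JAZ10 had OPR3 (0.374) among its 3 nearest too, behind PNC2 (0.305). JAZ5 lay near AT4G20860 (0.251), the stress-induced NAC factor gene RD26 (0.264) and CYP94C1 (0.291), which oxidises jasmonoyl-isoleucine. JAZ1 lay nearest to an entry that joins AT2G32190 and AT2G32200 (0.199), then to the ubiquitin ligase gene PUB23 (0.224) and to ERF2 (0.29). JAZ2 and JAZ6 had a mean difference of 0.137, with JAZ6 at rank 3 for JAZ2 and JAZ2 at rank 6 for JAZ6. ESL1 (0.0954) lay nearest to JAZ2 and AT3G53960 (0.0983) nearest to JAZ6. JAZ12 lay nearest to AtTLP7 (0.0614), BAG6 and AtRLP54, and JAZ3 to AT2G43535 (0.117). JAZ7 and JAZ8 could not be placed, because each was left untested in 1 comparison.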

How the data were processed

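RNA of leaves was sequenced as paired reads of 100 bases, in 2 runs per library. Per the submitters' processing notes, the authors used TopHat2, Cufflinks and Cuffdiff on TAIR10; versions, annotation, strand setting and reads per library are not given in the sources used here, so depth is unknown. Per the file headers, the authors' FPKM values are 1 per gene and group, from a separate Cuffdiff run for each of the 7 comparisons, and each comes with a deposited test statistic (a score), an uncorrected p-value and its Benjamini-Hochberg q-value. The labels number biological replicates but do not say how plant pools were separated, nor whether both runs of a library entered as replicates, so p-values measure a spread that may be in part technical. The libraries of 35S-GDU1 and 35S-GDU3, 1 each, were not analysed here.

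Fold changes on the log2 scale were taken here as line over control FPKM, because the deposited log2 column has cells that are not numbers. A gene was called where the table marks it as tested and the authors' q was below 0.05. Standard errors were the absolute log2 fold change over the normal quantile of the authors' p-value. Differences between comparisons without shared libraries were tested over all genes tested in both, a step also tested on simulated data. Alternatives were a q of 0.01, FPKM of at least 1, a pseudocount of 1 FPKM, centring on the median gene, a 2-fold minimum, adjustment over expressed genes and entries of 1 gene only; p from the test statistic and omission of JAZ3 and JAZ12 were added after seeing the data.

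Starts in the tables are counted from 0, since 11740 entries match an annotated TAIR10.1 start when 1 is added and 170 as listed, and are printed with 1 added. Promoter windows were read from the RefSeq TAIR10.1 genome at the annotated genes, whose starts differ from those of the JAZ entries. The window of JAZ1 is not reported here. The JAZ members and the lists were chosen with earlier results of these data known. All members were named, with up to 4 called genes of largest change per list and comparison, MYC2, COI1 and the nearest genes. NINJA, TPL, JAM2, JAM3, MED25 and ORA59 are named beside small counts and were chosen after their values were seen. Python 3.11.15 with numpy 2.4.6, pandas 2.3.3 and scipy 1.17.1 was used.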

Additional observations from a re-analysis of the deposited data

Results flagged for a closer look

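Of the 9 JAZ genes tested at both times after the spray, 5 changed by different amounts in Dex-GDU1 over 4c-S7 at 25 h and at 7 h, by a test of the difference itself. The log2 fold change at 25 h exceeded that at 7 h by 0.62 for JAZ2, 1.35 for JAZ5, 0.66 for JAZ6, 1.03 for JAZ9 and 1.83 for JAZ10. In the same test 10.4% of all 17114 genes were more positive. With standard errors from the test statistic JAZ9 alone was called, and at an adjusted p below 0.01 JAZ10 alone. Each time has its own 3 Dex-GDU1 and 4 4c-S7 libraries, and the hour of the day differs between both samplings in line and control alike.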

How the results depend on the processing

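The direction held for each JAZ gene under each alternative that gave a value, with 1 exception: the difference between Dex-GDU1 at 25 h and gdu1-1D for JAZ7 turned from -0.22 to 1.17 with 1 FPKM added, neither being called. Counts of members called higher stayed within 1.5 times under the FPKM minimum, the pseudocount, centring, the other adjustment, entries of 1 gene and omission of JAZ3 and JAZ12. At 7 h the count of 4 fell to 2 at a q of 0.01, to 0 with a 2-fold minimum and to 0 with p from the test statistic. With the 2-fold minimum the count was 4 for gdu1-1D and for the libraries labelled 35S-GDU4, and 3 for 35S-GDU2. The shares of all tested genes at a q of 0.01, or at this minimum against Col, are not given here. These counts are therefore not set against a general rate. Of 5 differences between 25 h and 7 h, 1 was left with standard errors from the test statistic (JAZ9) and 1 at an adjusted p of 0.01 (JAZ10), while 6, with JAZ8 added, were called with 1 FPKM added. With p from the test statistic, 9 single calls were lost, namely JAZ1, JAZ2, JAZ6 and JAZ9 at 7 h, JAZ8 at 25 h, JAZ10 in gdu1-1D, JAZ10 and JAZ12 in the libraries labelled 35S-GDU4 and JAZ3 in 35S-GDU6, and 5 were gained, those of JAZ7 against Col; why the deposited p-values and statistics differ was not tested. No paired analysis was possible because the tables hold 1 value per gene and group, and for the same reason no library could be left out. Depth per library is unknown, which limits JAZ7 and JAZ8 in Col.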
